A study of Mus musculus with 6 samples.

Results

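The genes described here are Spg21, Pif1, Rbpms2, Oaz2, Usp3, Tpm1 and Tln2, 7 protein-coding genes that lie 5 to 8 Mb from Khdc3 on mouse chromosome 9 and were picked by name because their RNA differed between genotypes. They are 7 of 53656 rows of a table of oocyte expression, and all 7 were found. RNA was sequenced from mouse oocytes that had been dissected by hand from ovaries, in 3 wild-type (WT) and 3 Khdc3-null (KO) libraries, and the comparison asked how the transcriptome differs without Khdc3, which encodes a component of the subcortical maternal complex of the egg. How the null allele was made, the strain, the age and stage, whether oocytes were pooled and whether the libraries came from separate animals are not stated in the sources at hand. Errors and p-values therefore describe the scatter of these 6 libraries, which may be technical. Since the genes were selected for a difference between KO and WT, their values in that contrast are a description and carry no test.

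The 7 genes have unrelated products. Usp3 encodes a deubiquitinase that removes ubiquitin from histones H2A and H2B, a mark that is added around DNA breaks and on silenced or transcribed chromatin. Pif1 encodes a DNA helicase that unwinds G-quadruplexes and helps forks pass difficult templates, in the nucleus and in mitochondria. Rbpms2 encodes an RNA-binding protein with an RNA recognition motif, known from zebrafish for its part in oocyte polarity and ovary fate. Oaz2 encodes an antizyme, a protein made through a polyamine-dependent frameshift that binds ornithine decarboxylase and sends it to the proteasome. Tpm1 encodes a tropomyosin, which lies along actin filaments and sets which proteins can bind them, and Tln2 a talin, which ties integrins to actin. Spg21 encodes maspardin, an endosomal protein whose loss in people causes a form of hereditary spastic paraplegia.

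In genome order (GRCm38, chromosome 9), Spg21 spans 65460947 to 65488470, Pif1 65587160 to 65595967, Rbpms2 65629648 to 65660528 and Oaz2 65668001 to 65690300, all on the plus strand. Usp3 spans 66514637 to 66593142, Tpm1 67022590 to 67049406 and Tln2 67217087 to 67559703, all on the minus strand. All lie at lower coordinates than Khdc3 (73101836 to 73104438, plus strand), so the group flanks it on 1 side. The 5′ ends stood 7.64 Mb (Spg21), 7.51 Mb (Pif1), 7.47 Mb (Rbpms2), 7.43 Mb (Oaz2), 6.51 Mb (Usp3), 6.05 Mb (Tpm1) and 5.54 Mb (Tln2) from the Khdc3 start. Rbpms2 and Oaz2 are direct neighbours 7472 bases apart, and Pif1 lies 33680 bases before Rbpms2.

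Promoter sequences were available from RefSeq (GRCm38.p6) for 5 of the 7 genes, each as a window of 300 bases that runs from 250 bases before the annotated start to 50 after it. The windows of Usp3, the gene with the largest difference, and of the neighbours Rbpms2 and Oaz2 are shown 5′ to 3′ on the strand of the gene, with every GC box (GGGCGG, either strand) in capitals. They lie at chr9:66593066-66593365 (minus), chr9:65630332-65630631 (plus) and chr9:65676298-65676597 (plus). For Usp3, Rbpms2 and Oaz2 the RefSeq start lies inside the gene span given above, which is GENCODE's.
Usp3: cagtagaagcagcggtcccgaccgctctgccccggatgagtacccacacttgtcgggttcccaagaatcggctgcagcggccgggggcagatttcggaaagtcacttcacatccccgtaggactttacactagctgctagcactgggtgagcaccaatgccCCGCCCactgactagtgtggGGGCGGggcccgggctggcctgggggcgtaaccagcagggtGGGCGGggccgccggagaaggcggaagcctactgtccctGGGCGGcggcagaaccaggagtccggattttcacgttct
Rbpms2: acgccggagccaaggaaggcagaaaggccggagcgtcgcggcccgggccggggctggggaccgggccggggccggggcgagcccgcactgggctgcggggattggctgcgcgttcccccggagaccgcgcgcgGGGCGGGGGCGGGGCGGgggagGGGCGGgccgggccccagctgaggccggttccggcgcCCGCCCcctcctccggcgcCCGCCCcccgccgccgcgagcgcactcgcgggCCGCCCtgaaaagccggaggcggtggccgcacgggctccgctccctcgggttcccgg
Oaz2: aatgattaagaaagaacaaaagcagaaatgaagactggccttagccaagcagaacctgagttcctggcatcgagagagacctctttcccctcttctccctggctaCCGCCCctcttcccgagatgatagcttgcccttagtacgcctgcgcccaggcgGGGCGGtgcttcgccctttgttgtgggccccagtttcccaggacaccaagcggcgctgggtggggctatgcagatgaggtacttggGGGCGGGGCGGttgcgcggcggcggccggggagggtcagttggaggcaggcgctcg

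All 5 windows held at least 1 GC box, with 7 matches in Rbpms2, 4 each in Oaz2 and Usp3 and 1 each in Spg21 and Tpm1, where matches may overlap each other. Of 32851 promoter windows of this length in the table, 35.7% held the motif. CpG dinucleotides numbered 48 in Rbpms2, 27 in Tpm1, 22 in Usp3, 19 in Oaz2 and 17 in Spg21, against a median of 7 over all windows. The E-box (CANNTG, its own reverse complement) had at least 1 match in each of the 5 windows and in 72.3% of all windows. A TATA box (TATAAA), an NRF1 core (TGCGCA, its own reverse complement), a homeobox core (TAATTA, its own reverse complement) or a CArG box, searched on both strands, was in none of the 5 windows, and in 13.6%, 7.76%, 5.29% and 1.63% of all windows. A CCAAT box (CCAAT, either strand) had 1 match each in Rbpms2, Usp3 and Tpm1 and was in 37.4% of all windows. These matches describe the letters only.

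Expression was given as RPKM, reads scaled to gene length and to library size, and the values correspond to 34640170 to 43343444 reads per library. Differences are given on the log2(RPKM + 1) scale from a limma fit over 12272 genes, those reaching RPKM 1 in 3 or more libraries, and a gene is said to be called at an adjusted p under 0.05. An error after a level is the SD over 3 libraries of a genotype, and an error after a log2 change is the SE. Khdc3 stood at 423, 425 and 502 RPKM in WT replicates 1, 2 and 3 and at 0.224, 0.217 and 0.113 RPKM in KO replicates 1, 2 and 3, which fits the labels in all 6 libraries. All 7 genes were called, 6 higher and 1 lower in KO, where 2.74% of tested genes were called, 1.6% as higher and 1.14% as lower. This count follows from how they were picked. In bulk RNA, a change in the number of contributing cells and a change in RNA per cell cannot be told apart.

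**Figure D1:**
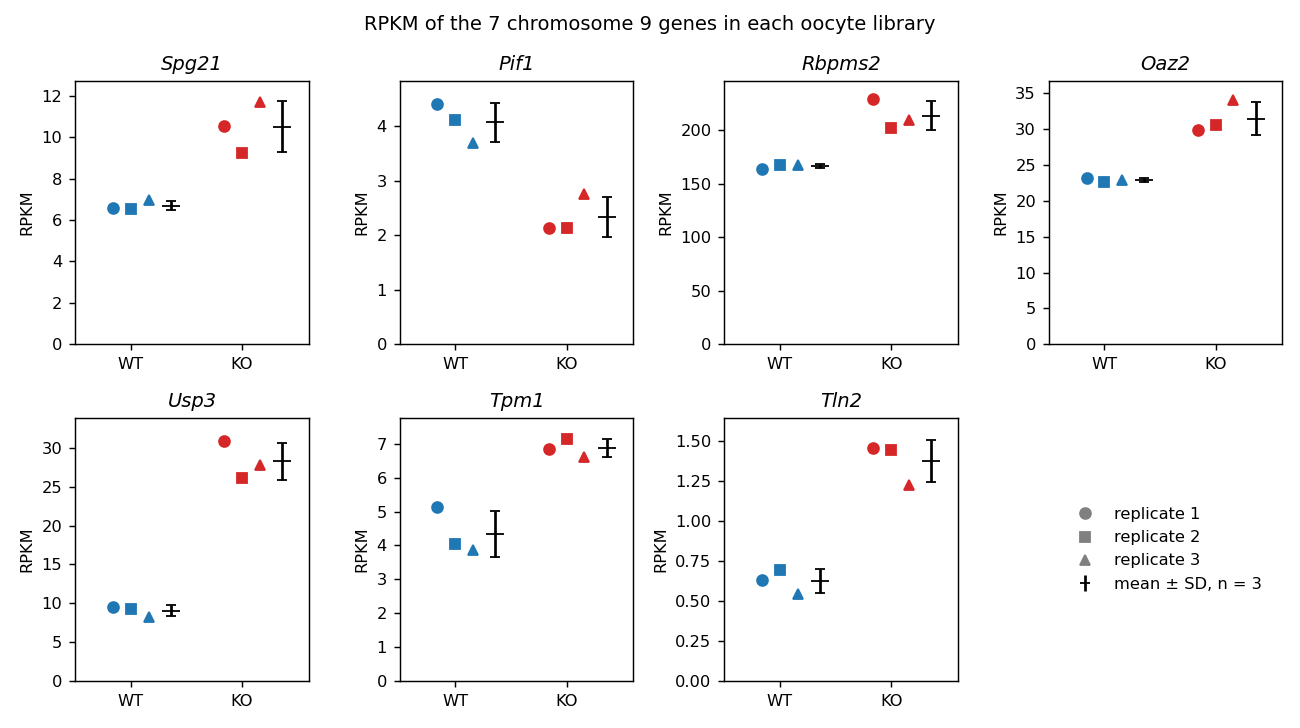
RPKM of each gene in every library (circle, square and triangle: replicates 1, 2 and 3; blue WT, red KO; black line: mean ± SD, n = 3), each panel with its own axis from 0. In every panel the 3 KO values lie outside the range of the 3 WT values, above it in 6 panels and below it for Pif1.

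Usp3, the histone deubiquitinase, showed the largest difference of the group. WT replicates 1, 2 and 3 held 9.55, 9.27 and 8.22 RPKM, and KO replicates 1, 2 and 3 held 30.9, 26.2 and 27.9 RPKM. The lowest KO library lay 16.6 RPKM above the highest WT library, a gap wider than the spread within either genotype. The means were 9.01 ± 0.705 RPKM (WT) and 28.3 ± 2.38 RPKM (KO), a 3.14-fold higher level in KO and a log2 change of 1.55 ± 0.09 (SE). By mean level Usp3 stood at place 5306 of the 12272 tested genes in WT and at place 2222 in KO. The values rest on 2266 to 8294 reads per library.

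Rbpms2, the RNA-binding protein, was by far the most abundant of the 7 and ranked 236 among tested genes in WT. It stood at 163.9, 167.3 and 167.6 RPKM in WT and at 228.6, 202.3 and 209.5 RPKM in KO (replicates 1, 2 and 3). The WT libraries were nearly equal, with a coefficient of variation of 1.24%, while the KO libraries spread over 6.37% and all lay above WT. The difference was 28.4% of the WT mean, with a log2 change of 0.36 ± 0.06 (SE), the smallest relative difference of the group. Oaz2, the antizyme gene next to it, stood at 23.1, 22.6 and 23.0 RPKM in WT and 29.8, 30.5 and 34.1 RPKM in KO. It shared with Rbpms2 a narrow WT range and a wider KO range (coefficients of variation 1.13% and 7.18%), and its KO mean was 1.37-fold higher (log2 change 0.44 ± 0.07, SE). The library that was highest differed between these neighbours, KO replicate 1 for Rbpms2 and KO replicate 3 for Oaz2.

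Pif1, the helicase, was the 1 gene of the group that was lower in KO. WT replicates 1, 2 and 3 held 4.41, 4.11 and 3.69 RPKM, and KO replicates 1, 2 and 3 held 2.14, 2.13 and 2.77 RPKM. The highest KO library remained 0.928 RPKM under the lowest WT library. The KO mean was 2.34 ± 0.366 RPKM against 4.07 ± 0.362 RPKM in WT, a level 1.74-fold higher in WT, with a log2 change of -0.60 ± 0.11 (SE). The tested gene before it in genome order is Plekho2, which encodes a pleckstrin homology domain protein. Plekho2 had a mean of 0.718 ± 0.140 RPKM for KO and 1.59 ± 0.384 RPKM for WT (log2 change -0.59 ± 0.14; limma adjusted p = 0.074). It passed the filter only through the WT libraries, where it is high. It was not called here, though limma-voom on recovered reads and library weights gave adjusted p of 0.034 and 0.040.

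Spg21, the maspardin gene, stood at 6.59, 6.54 and 6.95 RPKM in WT and at 10.5, 9.27 and 11.7 RPKM in KO (replicates 1, 2 and 3). Its KO libraries, all above WT, were spread more widely than its WT libraries, with coefficients of variation of 11.7% and 3.34%. The KO mean was 1.57-fold higher (log2 change 0.58 ± 0.10, SE). Its neighbour Mtfmt, the mitochondrial methionyl-tRNA formyltransferase gene, ends 7892 bases before it in genome order and averaged 7.58 ± 0.121 RPKM in KO against 6.48 ± 0.217 RPKM in WT. All KO values of Mtfmt lay above WT, but it was not called (log2 change 0.20 ± 0.08; limma adjusted p = 0.21).

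The genes tied to the actin cytoskeleton had higher levels in KO. Tpm1 stood at 5.12, 4.05 and 3.86 RPKM in WT and 6.85, 7.15 and 6.62 RPKM in KO (replicates 1, 2 and 3), a 1.58-fold higher mean (log2 change 0.57 ± 0.11, SE). In contrast to Spg21, Rbpms2 and Oaz2, its WT libraries were the more variable, at 15.7% against 3.92% in KO, with WT replicate 1 the highest of them. Tln2 stood at 0.629, 0.696 and 0.547 RPKM in WT and 1.46, 1.44 and 1.22 RPKM in KO. The WT values are all below 1 RPKM, so Tln2 entered the test only through the KO libraries where it is high. Its exons add up to 18357 bases, and even the lowest library held 400 reads. The KO mean was 2.20-fold higher, while the log2(RPKM + 1) change was 0.55 ± 0.11 (SE), since the added 1 compresses low values. On the recovered reads, fitted with voom, the log2 change of Tln2 was 1.14 ± 0.14 (SE).

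The order of the levels was Rbpms2, Oaz2, Usp3, Spg21, Tpm1, Pif1 and Tln2 in both genotypes. In WT, RPKM fell 7.26-fold from Rbpms2 to Oaz2 and 2.54-fold from Oaz2 to Usp3, and of all neighbours in the order only Tpm1 (3.86 to 5.12 RPKM) and Pif1 (3.69 to 4.41 RPKM) had overlapping ranges. In KO, Tpm1 and Pif1 no longer overlapped, at 6.62 to 7.15 and 2.13 to 2.77 RPKM. Usp3 (26.2 to 30.9 RPKM) instead reached into the range of Oaz2 (29.8 to 34.1 RPKM). The highest library was not the same for all genes. Among KO libraries replicate 1 was highest for 3 genes, replicate 2 for 1 and replicate 3 for 3, and among WT libraries replicate 1 was highest for 4, replicate 2 for 1 and replicate 3 for 2.

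**Figure D2:**
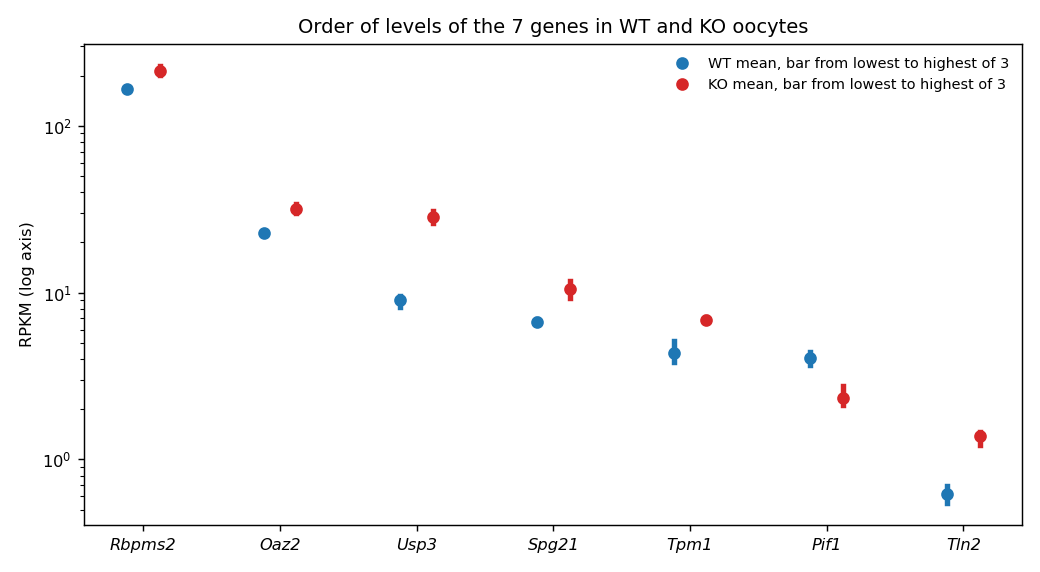
Mean RPKM on a log axis of each gene in WT (blue) and KO (red), with bars from the lowest to the highest of 3 libraries, ordered by the WT mean. Usp3 in KO reaches the level of Oaz2, at 28.3 against 31.5 RPKM, and Pif1 is the gene whose KO mean lies under its WT mean.

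From 5 to 8 Mb on the side of the 7 genes, 20 other genes were tested and 1 was called, Aph1b, a subunit of gamma-secretase, where 2.74% of all tested genes were called. Aph1b stood at 1.98, 2.48 and 1.98 RPKM in WT and 3.66, 3.89 and 3.36 RPKM in KO (log2 change 0.56 ± 0.11; limma adjusted p = 0.034). It lost the call when any single library of the 6 was left out (adjusted p of 0.051 to 0.11). Its neighbouring paralog Aph1c differed the other way, with 8.67 ± 0.159 RPKM in KO against 10.6 ± 1.36 RPKM in WT and no call (limma adjusted p = 0.22). How reads were shared out between these similar genes was not tested. By voom on recovered reads 4 of the 20 were called, which were Aph1b, Plekho2, Parp16 and Csnk1g1, where that fit called 3.35% of genes. Of the 20 genes, 14 had 3 KO values outside the WT range, 7 above and 7 below, where 25.8% of the tested genes had such a gap. The median log2 change of the 20 was 0.13 and that of all tested genes 0.01, while the median size of the change regardless of sign was 0.27 and 0.12. The interval was chosen with these data known, and no test of its content was made. Of the tested genes, Parp16 (7.91 Mb) was the farthest inside it and Hacd3 (8.08 Mb) the first beyond it.

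Other direct neighbours of the 7 were not called. Zfp609, a zinc finger gene that lies 2090 bases past Oaz2 on the other strand, averaged 1.70 ± 0.0744 RPKM (WT) and 2.04 ± 0.215 RPKM (KO), with a limma adjusted p of 0.40. Fbxl22, an F-box gene that lies 43 bases past the 3′ end of Usp3 on the same strand, averaged 2.96 ± 0.0853 and 2.22 ± 0.547 RPKM (limma adjusted p = 0.26). All its KO values lay below WT while those of Usp3 lay above. Lactb, a mitochondrial serine protease gene before Tpm1 in genome order, stood at 17.5 ± 1.47 and 16.1 ± 1.93 RPKM with overlapping groups (adjusted p = 0.58). Past Tln2 the next tested gene, the nuclear receptor gene Rora, is 1094082 bases away and stood at 4.16 ± 0.414 and 5.57 ± 0.666 RPKM (adjusted p = 0.15). No annotated gene shares more than 1 exonic base with any of the 7, the shared base being with Ankdd1a at Spg21.

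The nearest called genes outside the interval were Dis3l and Myo1e. Dis3l, a cytoplasmic exosome nuclease gene 8.76 Mb from Khdc3, fell from a mean of 42.1 ± 2.10 RPKM to 28.0 ± 3.92 RPKM (limma adjusted p = 0.026). Myo1e, a class I myosin gene 2.89 Mb away, rose from 2.78 ± 0.936 to 8.79 ± 0.413 RPKM (limma adjusted p = 0.0067). Farther out, Coro2b, a coronin gene 10.6 Mb away, stood at 1.41, 1.59 and 1.73 RPKM in WT and 5.50, 6.24 and 13.0 RPKM in KO, with KO replicate 3 far above the others (adjusted p = 0.014). Closer in, the aquaporin gene Aqp9, 1.93 Mb away, fell from 7.21 ± 1.26 to 3.55 ± 0.307 RPKM and Tex9, 0.610 Mb away, rose from 0.349 ± 0.0956 to 1.24 ± 0.164 RPKM (adjusted p = 0.016 and 0.018). Leaving out a library ended the call of Coro2b once (WT replicate 3, adjusted p = 0.051), of Dis3l for WT replicates 1, 2 and 3 and KO replicate 3 (0.058 to 0.0945), of Aqp9 for WT replicate 2 and KO replicates 2 and 3 (0.056 to 0.063), and of Tex9 for all but WT replicate 1 (0.052 to 0.062). Like Tln2, Tex9 was tested only because its KO values passed 1 RPKM.

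**Figure D3:**
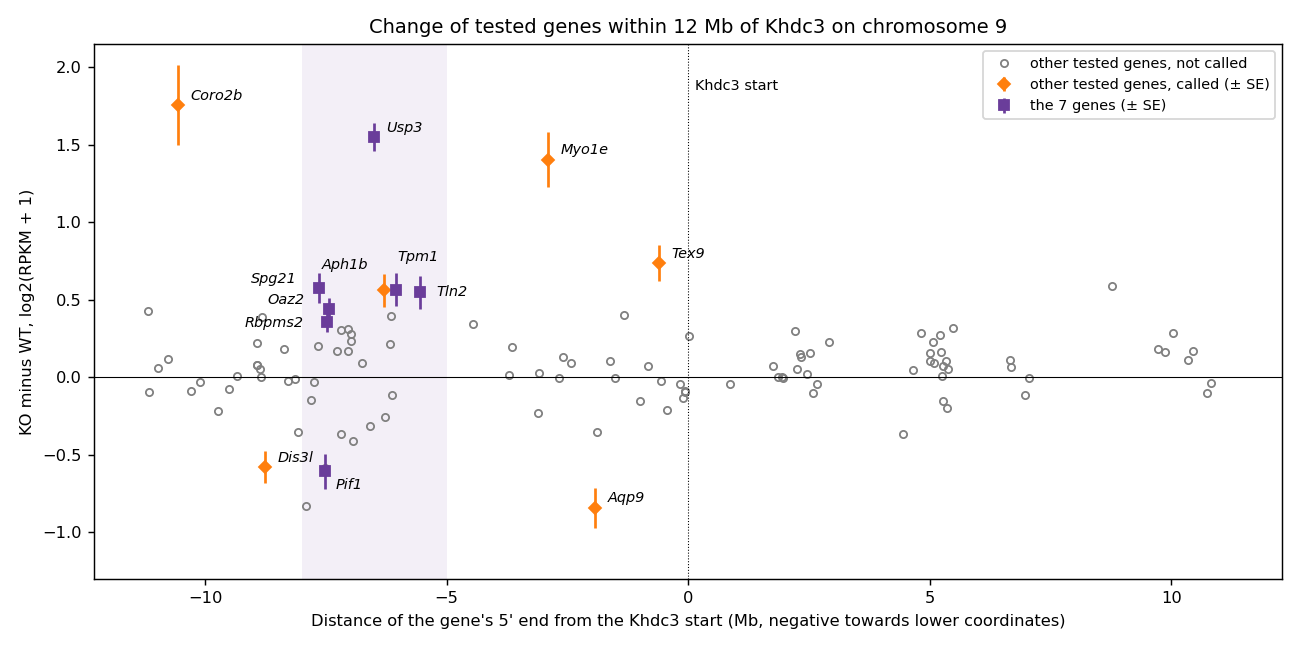
Difference KO minus WT in log2(RPKM + 1) of every tested gene within 12 Mb of Khdc3, against the distance of its 5′ end from the Khdc3 start in Mb (Khdc3 itself not drawn; purple squares: the 7 genes; orange diamonds: other called genes; open circles: genes not called; bars: SE; shading: 5 to 8 Mb). All called genes are at negative distances, and they include rises such as Usp3 (1.55) and falls such as Aqp9 (-0.84).

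Within 12 Mb, all called genes lay at lower coordinates than Khdc3. On that side 6 of 64 tested genes other than the 7 were called, 4 higher and 2 lower (9.38%, against 2.74% of all tested genes). There 27 of the 64 had an unadjusted p under 0.05 (42.2%, against 19.0% of all tested genes). Voom called 10 of the 64, where it called 3.35% of all its genes. Library weights called 12, where they called 662 of the 12272 tested genes. On the other side 0 of 43 were called by limma and 6 had an unadjusted p under 0.05 (14.0%). There voom and the replicate block each called 1, Mei4, a gene of meiotic recombination, and library weights called 2, Mei4 and Rsl24d1, both named after their values were seen. In the matching interval, 5 to 8 Mb at higher coordinates, 0 of 17 were called by limma, 1 had an unadjusted p under 0.05 and voom called 0. Within 5 Mb on either side 3 of 41 were called. Over the rest of chromosome 9, beyond 12 Mb, 14 of 472 were called (2.97%). The difference between the sides was not tested.

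Calls were few among the paralogs and pathway partners of the 7 genes, as they were over all tested genes. Over all lists, 1 of 106 tested genes was called (0.943%, against 2.74% of all tested genes), and the median log2 change was 0.00 in the lists and 0.01 over all genes. The called gene was Cyp7b1, a sterol hydroxylase gene listed with the spastic paraplegia genes of Spg21, which rose from 0.697 ± 0.0792 to 2.42 ± 0.255 RPKM (log2 change 1.01 ± 0.11; limma adjusted p = 0.0027). Its WT values are all below 1 RPKM, so it was tested only through the KO libraries, where it is high. The other 20 tested genes of that list were not called. Voom, which covered 98 of the 106, called 4, Cyp7b1, Washc5, Itga6 and Tpm4, where that fit called 3.35% of its genes. An unadjusted p under 0.05 was found for 18 of the 106 (17.0%) and for 19.0% of all tested genes, against which the counts by list that follow can be read.

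For the antizyme Oaz2, none of 12 other polyamine genes was called by limma or voom, and 0 had an unadjusted p under 0.05. Its paralog Oaz1 averaged 62.1 ± 2.03 RPKM (WT) and 67.3 ± 4.04 RPKM (KO), with overlapping groups (limma adjusted p = 0.39). Odc1, the ornithine decarboxylase that antizymes bind, averaged 37.9 ± 2.16 RPKM (WT) and 38.8 ± 0.748 RPKM (KO; limma adjusted p = 0.81). Oaz3, an antizyme of male germ cells, was below the filter at 0.144 to 0.277 RPKM. For Pif1, none of 15 other helicases was called by limma or voom and 0 had an unadjusted p under 0.05. For Usp3, none of 18 other genes of the histone ubiquitin cycle was called by limma or voom, with 3 at an unadjusted p under 0.05. For Rbpms2, none of 9 listed genes was called by limma or voom, with 1 at an unadjusted p under 0.05, and its paralog Rbpms averaged 49.1 RPKM in WT and 48.9 RPKM in KO (limma adjusted p = 0.97).

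Each of the 3 other tropomyosin genes had all KO values above the WT range, as 13.5% of all tested genes did; Tpm1 was picked for such a difference and is not counted. Tpm4 stood at 7.95, 8.12 and 4.54 RPKM in WT and 13.6, 13.8 and 10.4 RPKM in KO (log2 change 0.82 ± 0.20; limma adjusted p = 0.080). Tpm3 stood at 5.50 ± 1.03 and 7.81 ± 0.189 RPKM (adjusted p = 0.094) and Tpm2 at 1.66, 1.48 and 1.38 RPKM (WT) and 4.85, 2.89 and 1.68 RPKM (KO; adjusted p = 0.21). In the main limma fit no paralog of Tpm1 was called and all 3 had an unadjusted p under 0.05. Voom called Tpm4 (adjusted p = 0.047). Limma with the replicate block called it too (adjusted p = 0.019), where that fit called 320 of the 12272 tested genes. Leaving out WT replicate 2 brought Tpm3 past the threshold (adjusted p = 0.049). None of 12 other actin filament genes was called by the main limma fit or voom, with 2 at an unadjusted p under 0.05. The replicate block called 1 of them, Myl9. For Tln2, none of 16 other adhesion genes was called by limma, 5 had an unadjusted p under 0.05 and voom called Itga6, while the paralog Tln1 stood at 2.18 ± 0.308 and 2.69 ± 0.281 RPKM with overlapping groups (adjusted p = 0.35).

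**Figure D4:**
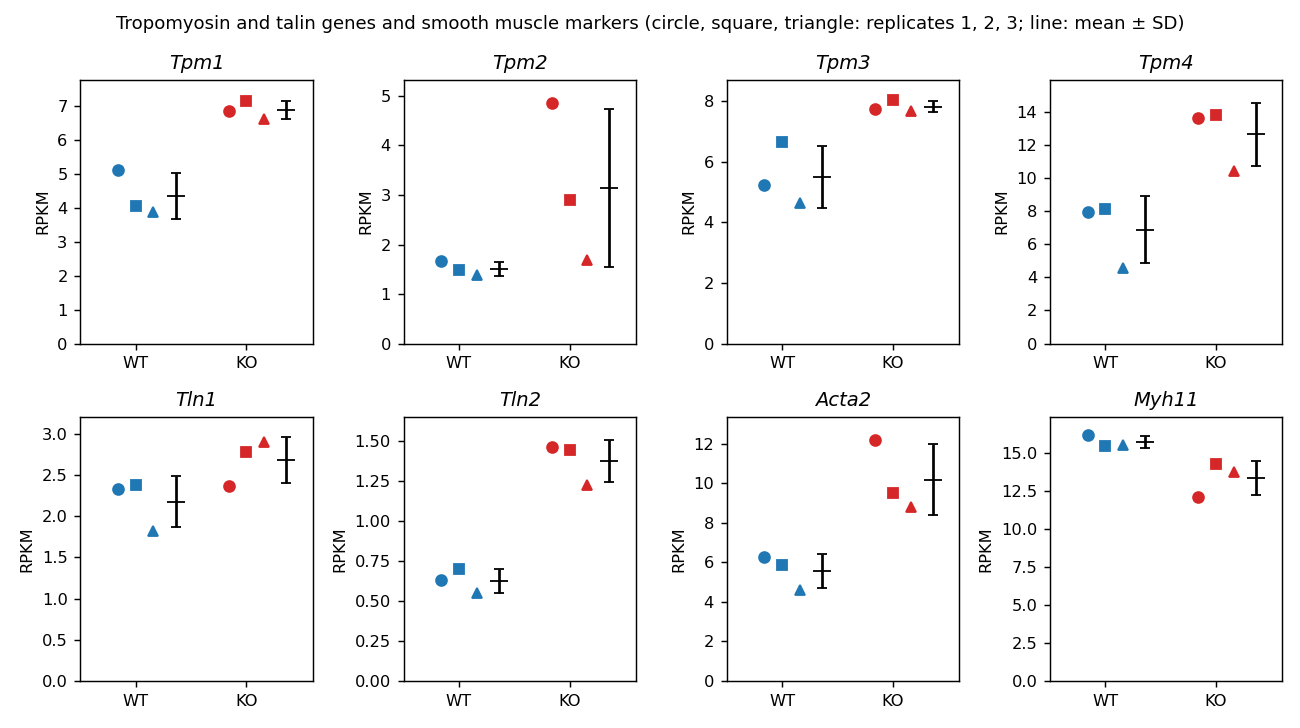
RPKM in every library of the 4 tropomyosin genes, both talin genes and the smooth muscle markers Acta2 and Myh11 (circle, square and triangle: replicates 1, 2 and 3; blue WT, red KO; line: mean ± SD, n = 3), axes from 0. KO values lie above WT in all tropomyosins and Acta2, below WT in Myh11, and overlap in Tln1.

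Tropomyosins and talins are also expressed by smooth muscle and stroma. Of the tested markers of other ovarian cells, limma called 2, where it called 2.74% of all tested genes. They were Acta2, of 10 tested in its list, and Nr5a1, of 13. For 16 genes of stroma, muscle and ovarian surface, the summed level was 32.7 to 41.7 RPKM in WT and 43.0 to 56.9 RPKM in KO, with 15 above 0 in all libraries and Krt19 at 0 in some. An unadjusted p under 0.05 was found for 9 of the 10 tested, the lower Myh11 included (90%, against 19.0% of all tested genes). This count, that of the replicate block and that of KO values above WT include Tcf21. It was below 1 RPKM in all WT libraries, so it was tested only through the KO libraries, where it is high. Dcn, Lum, Col1a1 and Col1a2 reached 1 RPKM in WT only in replicate 1, and Col3a1 in replicates 1 and 2. They too needed KO libraries to be tested. Of the 10, 9 had a positive log2 change, as 6520 of the 12272 tested genes did. Voom called 1 of the 8 it covered, Dcn, where it called 3.35% of its genes. The replicate block called 4, Acta2, Col3a1, Col1a2 and Tcf21, where it called 320 of the 12272 tested genes. Of the 10 tested, 5 had all KO values above WT, as 13.5% of all tested genes did, and 1, Myh11, a smooth muscle myosin, all below, as 12.2% did (15.7 ± 0.396 and 13.4 ± 1.12 RPKM; limma adjusted p = 0.20). Acta2, smooth muscle actin, rose from 5.58 ± 0.865 to 10.2 ± 1.80 RPKM (adjusted p = 0.034, and 0.056 to 0.099 without WT replicate 2 or 3 or any KO replicate), and the smooth muscle gene Tagln was at 0.235 to 0.590 RPKM over all 6 libraries. The sum of 17 granulosa and cumulus markers was 263, 257 and 138 RPKM in WT and 311, 310 and 417 RPKM in KO (replicates 1, 2 and 3). Of these markers 16 were above 0 in all libraries and Ptx3 was at 0 in some. Inha, the inhibin alpha gene, made up 72.9% to 78.1% of that sum and was not called (limma adjusted p = 0.20), and the sum of the others was 34.4 to 59.9 RPKM in WT and 67.9 to 106.8 RPKM in KO. Of the 13 tested, 3 had all KO values above WT, as 13.5% of all tested genes did. All 13 had a positive log2 change, as 6520 of the 12272 tested genes did. Their median log2 change was 0.60, against 0.01 over all tested genes. An unadjusted p under 0.05 was found for 5 of the 13 (38.5%, against 19.0% of all tested genes). Nr5a1, a steroidogenic nuclear receptor gene, rose from 1.08 ± 0.131 to 2.74 ± 0.753 RPKM (adjusted p = 0.039, and 0.079 to 0.13 when any library other than KO replicate 2 was left out). The sum of 14 oocyte markers was 12387 to 13243 RPKM in WT and 11868 to 12231 RPKM in KO. Of the 14, 2 had a positive log2 change, and the median log2 change was -0.11, against 0.01 over all tested genes. Limma called 0 of them, and 2 had an unadjusted p under 0.05 (14.3%, against 19.0% of all tested genes). Sums of the other lists overlapped between the genotypes, except that 7 leukocyte markers reached 3.26 to 5.95 RPKM in WT and 8.23 to 17.2 RPKM in KO, with Ptprc and Adgre1, which define the lineage, at 0 in some libraries. The part of these cells in the values of Tpm1, Tln2 or the other 5 genes was not tested.

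For each gene the 2 tested genes with the highest Pearson correlation of log2(RPKM + 1) over 6 libraries were taken, without predicted genes. The search also left out Khdc3, the genes described here and tested genes without a GENCODE position (10289 of 12272 have one). The nearest gene could therefore not be another gene of the group. All such correlations share the split between genotypes, and they are given with no test. Usp3 was nearest to Slc43a3 on chromosome 2 (r = 0.996), Rbpms2 to Krcc1 on chromosome 6 (0.997) and Cd200 on chromosome 16 (0.993), and Pif1 to Mapk14 on chromosome 17 (0.997) and Kat2a on chromosome 11 (0.994). Slc43a3, a solute carrier gene, stood at 4.97, 4.83 and 4.35 RPKM in WT and 16.8, 16.1 and 18.0 RPKM in KO. Oaz2 was nearest to the mitochondrial tRNA gene mt-Tc (0.998) and to Sc5d on chromosome 9 (0.996), Spg21 to Zdhhc16 on chromosome 19 and Etfa on chromosome 9 (0.987 each), Tpm1 to Chic1 on chromosome X (0.998) and Speer4f2 on chromosome 5 (0.996), and Tln2 to Ptprv on chromosome 1 (0.999) and Otud3 on chromosome 4 (0.994).

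Of the 7 calls, that of Usp3 held in each of its 14 alternative fits. With no filter on low values, where 0.275% of 34219 genes were called, Usp3 was the 1 gene of the 7 to be called. With a filter of RPKM 5, where 3.05% of 7280 genes were called, the 5 genes that could be tested were called and Pif1 and Tln2 fell below the filter. Without a single library the count of called genes was 4 with KO replicate 1 left out, 1 with WT replicate 2 or with WT replicate 3 left out and 2 for each of the other libraries, and Usp3 was among them each time. The direction of each of the 7 was the same under every alternative in which it was tested.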

How the data were processed

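RNA of hand-dissected mouse oocytes was measured in 3 WT and 3 Khdc3-null libraries, grouped by title. PicoPure extraction was followed by NEB Ultra II Directional library preparation, per the labels' protocols. The tools FastQC 0.11.7, STAR 2.6.0c and featureCounts 1.6.2 and the build GRCm38.p6 are named, per the submitters' processing notes, but the strand setting of the counting is not known here. The authors deposited RPKM values. GENCODE M21 (GRCm38) held 28447 of the gene names and 281 more through a synonym, and 10289 of 12272 tested genes have a position. With exon-union lengths, the RPKM of 92.4% of 19868 annotated genes came out as whole reads (within 0.01) in each library, which gave the read totals. All 7 genes did so.

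The log2(RPKM + 1) values were fitted in R 4.3.3 using limma 3.58.1 (trended prior, genotype only, Benjamini-Hochberg adjustment over all tested genes), for genes with RPKM of 1 or more in at least 3 libraries. The fit was also run on simulated reads with planted changes, whose outcome is not given here. They had a single dispersion, and changes were planted only in genes above the RPKM filter in every library. Levels as low as those of Tln2 were not covered. Exact permutation over 3 against 3 libraries cannot give a p under 0.1 and was not used. Positions are 5′ ends. Alternatives were pseudocounts of 0.1 and 0.5, no filter, a filter of RPKM 5, rescaling, a replicate block, library weights, voom on recovered reads of 9391 genes, gene midpoints and each library left out. The genes and lists were chosen with earlier results of these data known. Named genes are the 7, Khdc3, called list members, paralogs, called genes within 12 Mb of Khdc3, tested neighbours and the genes of most similar profile, of which 1 is not reported here. Sequences are RefSeq's (GRCm38.p6). Summaries used Python 3.11.15, numpy 2.4.6 and pandas 2.3.3, and figures matplotlib 3.10.9.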

Additional observations from a re-analysis of the deposited data

How the results depend on the processing

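The log2 changes of the 7 genes kept their direction in all 13 or 14 alternatives each was tested in, and ranged from 1.48 to 1.65 for Usp3, 0.31 to 0.39 for Rbpms2, 0.38 to 0.48 for Oaz2, 0.50 to 0.66 for Spg21, 0.50 to 0.68 for Tpm1, 0.51 to 1.14 for Tln2 and -0.80 to -0.56 for Pif1. Changes beyond the spread between libraries were those of Tln2 and Pif1 with other pseudocounts or recovered reads, which the pseudocount alters by construction. With no filter on low values, which adds genes to the adjustment, 94 genes were called in all, 1 of the 7, and 0 both within 5 Mb and among the others 5 to 8 Mb away (limma). With a filter of RPKM 5, 222 were called in all, 5 of the 7 (all that were tested), 0 of the others 5 to 8 Mb away and 0 of the list genes. The genes called there in the main fit, Aph1b and Cyp7b1, fell below this filter. With library weights 662 were called in all, 4 others at 5 to 8 Mb, 6 within 5 Mb and 3 list genes, and with voom 4 others at 5 to 8 Mb and 4 list genes; the cause was not tested. Without a single library, 151 to 289 genes were called in all, 1 to 4 of the 7, 0 of the others at 5 to 8 Mb, 1 to 3 within 5 Mb and 1 to 2 list genes. Cyp7b1 and Myo1e kept their calls in all 6 such fits, and Myo1e lost it with no filter (0.060). With the replicate number as a block, 3 of the 7 (Usp3, Oaz2 and Spg21) and 3 list genes (Tpm4, Myl9 and Cyp7b1) were called, and 320 genes in all. Same-numbered libraries did not deviate together for numbers 1 and 3 (correlations of -0.02 and -0.03). Number 2 gave 0.21, above the range for libraries of different number (-0.15 to 0.15). The numbers were not taken as pairs, though these values do not settle it. With gene midpoints the counts by distance were as given. At this depth counting error was at most 5.21% for the 7 genes.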

Other observations

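Among rows too low to be tested, 18 genes with reads lie 5 to 8 Mb from Khdc3 on the side of the 7 genes, and 4 of them (22.2%) had 3 KO values above the WT range and 0 below it. Of all 21947 untested genes with reads, 7.80% lay above and 3.10% below. They were Vps13c, a lipid transfer protein gene (0.126, 0.220 and 0.165 RPKM in WT and 0.439, 0.463 and 0.452 RPKM in KO replicates 1, 2 and 3), Ankdd1a, which shares 1 exonic base with Spg21 (0.353, 0.480 and 0.331 against 0.740, 0.757 and 0.997 RPKM), Pclaf, a PCNA-binding factor gene (0.642, 0.721 and 0.278 against 1.03, 1.65 and 0.868 RPKM), and Slc51b, an organic solute transporter subunit gene (0 in all WT libraries and 0.216, 0.0698 and 0.0325 RPKM in KO). These genes were picked out after their values were seen. The values of Slc51b, counted among the 4, lie near the floor, so its gap may rest on very few reads.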
